A study of Mus musculus with 12 samples.

Results

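High and regular dietary fat were compared in the livers of mice fed a sulfur amino acid restricted (SAAR) diet. The comparison takes 6 of the 12 mice sequenced, 3 labelled HF.SAAR (high fat) and 3 labelled RF.SAAR (regular fat), chosen by their diet labels alone. The other 6, labelled HF.Ctrl and RF.Ctrl, ate diets with more methionine and served for the test of whether the response to fat depends on the restriction. All 12 were male C57Bl/6J mice of 5 to 6 months, housed singly and fed their diet for 7 days. They were then deprived of food for 4 h before the liver was taken. The study states that its mice also received deuterium-labeled water, by injection and then in the drinking water. Every diet was free of cysteine, the SAAR diets held less methionine with glutamic acid in its place, with 18% of energy from fat in the RF diets and 60% in the HF diets. The regular-fat and high-fat diets came from different suppliers, so fat and any other difference between the suppliers' diets cannot be told apart. The study states that HF.SAAR mice ate less protein and sulfur amino acids by weight than RF.SAAR mice. Fat and the degree of restriction therefore cannot be told apart either. RNA came from crushed frozen tissue, and each library is 1 mouse.

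The liver uses methionine and cysteine to make protein, glutathione and taurine, and a shortage of them activates the integrated stress response, in which phosphorylated eIF2 slows general translation and favors the transcription factor ATF4. Restriction of sulfur amino acids is known for a lean phenotype and for low hepatic Scd1, the desaturase that makes monounsaturated fatty acids. Dietary fat acts on the same organ by other routes: it lowers the need for fatty acid synthesis, and fatty acids are ligands of the nuclear receptor PPARα, which drives fatty acid oxidation.

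Abundance of a gene is given as CPM, its counts relative to a library size scaled by TMM, a factor that evens out differences in composition between libraries. Total estimated counts were between 16203094 and 21230092 per mouse. Summed CPM of 5 defining hepatocyte markers was between 68965 and 80054 in the 6 SAAR livers. Other tissues were present in some livers. A list of 56 pancreatic acinar genes, among them Amy2a5, Pnlip and Cpb1, held 0.00858%, 0.450% and 2.23% of the counts in HF.SAAR replicates 1, 2 and 3, and between 0.00516% and 0.0112% in the RF.SAAR livers; 3 of the 6 Ctrl livers carried between 0.187% and 0.685%. These genes were set aside before the fit. A list of 15 adrenal genes, written after the data had been seen, summed to 461 CPM in RF.SAAR replicate 3 and 93.7 CPM in HF.SAAR replicate 3, against 31.0 to 42.2 CPM in the other 4 SAAR livers. In bulk tissue, fewer cells of a type and less RNA per cell cannot be told apart.

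**Figure D1:**
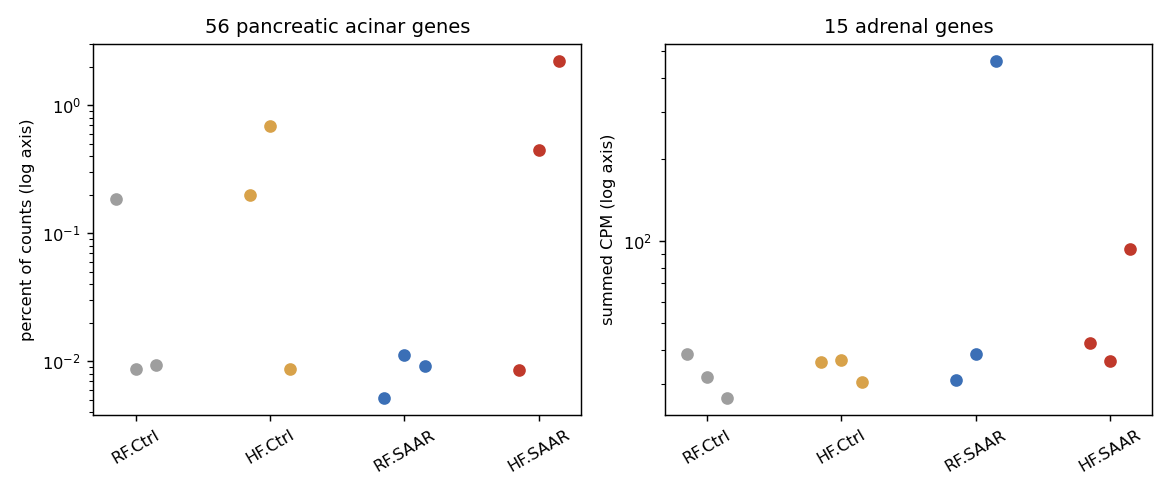
Transcripts of other tissues in each of the 12 livers. The left panel gives the percent of counts in 56 pancreatic acinar genes and the right panel the summed CPM of 15 adrenal genes, both on log axes, with 1 point per mouse. HF.SAAR replicates 2 and 3 reach 0.450% and 2.23% acinar counts, and RF.SAAR replicate 3 stands highest for adrenal genes at 461 CPM.

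Between HF.SAAR and RF.SAAR livers 8 of 14625 genes passed the test (edgeR quasi-likelihood test, adjusted p under 0.05), which is 0.0547% of the genes tested. Higher in HF.SAAR were Rdh9, Cyp39a1, Gsta2 and Slc22a7, and lower were Ces1d, Car3, Ces1e and Igtp, with fold differences between 1.58 and 2.16 upward and between 0.446 and 0.609 of the RF.SAAR level downward. In all 8, the 3 mice of one group lay clear of the 3 mice of the other. Groups that did not overlap were found for 798 genes higher in HF.SAAR (5.46% of the genes tested) and for 676 genes lower (4.62%). The count of genes past the test was 49 by DESeq2, 9 by limma voom and 5 with library size alone. The count was 1 without HF.SAAR replicate 2 or HF.SAAR replicate 3 and 4 without HF.Ctrl replicate 1, HF.Ctrl replicate 2 or RF.Ctrl replicate 2, all of them among the 8. It was 3 without RF.SAAR replicate 3, 4 without HF.SAAR replicate 1 and 5 without RF.SAAR replicate 1, of which 2, 3 and 4 were among the 8. Without both livers that carried pancreatic transcripts no gene passed in edgeR, while 447 had an unadjusted p under 0.05, and HF.SAAR was then a single mouse assumed to vary like the other groups.

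**Figure D2:**
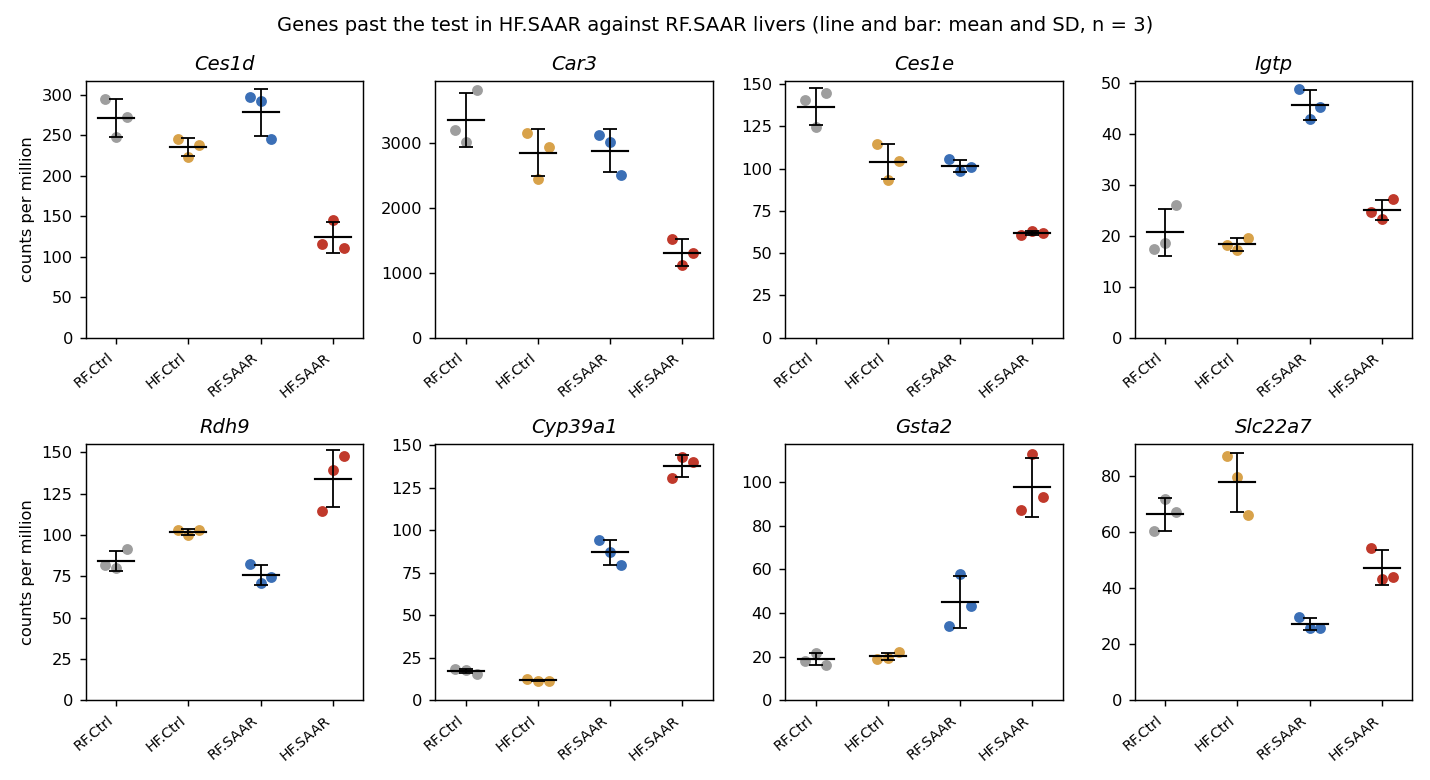
The 8 genes past the test in HF.SAAR against RF.SAAR, in CPM on linear axes from 0, with 1 point per mouse and the mean and SD (n = 3) of each group. The 3 HF.SAAR mice lie on one side of the 3 RF.SAAR mice in every panel, and Cyp39a1 is below 20 CPM in all 6 Ctrl mice.

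Of the carboxylesterases, a family of hydrolases of lipids and drugs, Ces1d had the smallest adjusted p of all genes tested. It encodes a triacylglycerol hydrolase of the endoplasmic reticulum that takes part in the release of stored fat for lipoprotein assembly. Ces1d was at 297, 292 and 245 CPM in the RF.SAAR mice and at 116, 146 and 110 CPM in the HF.SAAR mice. Every HF.SAAR mouse was thus below every RF.SAAR mouse, and the Ctrl mice, at 223 to 294 CPM, were near the RF.SAAR level. The HF.Ctrl mice (223 to 245 CPM) all lay below the RF.Ctrl mice (248 to 294 CPM), a log2 difference of -0.21 (SE 0.12). In restricted mice Ces1d (chr8:93166068-93197838 in GRCm38, minus strand) fell by 1.16 on the log2 scale (SE 0.12, adjusted p = 0.00297). It passed the test whichever single mouse was left out. Without the 2 pancreas-bearing livers its log2 difference was -1.27 (adjusted p = 0.117).

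Ces1e, its neighbor in the cluster on chromosome 8, was at 105, 98.4 and 101 CPM in RF.SAAR and 60.4, 63.3 and 61.9 CPM in HF.SAAR. The values within each group were close together and the gap between groups was wide. Every HF.Ctrl mouse (93.4 to 114 CPM) was also below every RF.Ctrl mouse (124 to 145 CPM). The log2 difference under the control diet was -0.39 (SE 0.10, adjusted p = 0.642). In restricted mice Ces1e fell by 0.72 (SE 0.10, adjusted p = 0.0167). Over the fits that leave out 1 mouse its log2 difference stayed between -0.74 and -0.69, with an adjusted p between 0.0163 and 0.125, and the call was lost without HF.SAAR replicate 1, 2 or 3 or RF.SAAR replicate 1 or 3. Of 16 carboxylesterases tested, 2 passed the test, both lower, 10 lay below 0 and 5 (31.2%) were lower in every HF.SAAR mouse, against 4.62% of all genes. Ces1f had a log2 difference of -0.41 (SE 0.10, adjusted p = 0.354) and Ces2c one of 0.82 (SE 0.16, adjusted p = 0.151). These genes are close paralogs, and kallisto divides reads that match several of them, so the division among members is uncertain.

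Car3, carbonic anhydrase III, an abundant cytosolic enzyme of liver, muscle and fat, fell by 1.14 (SE 0.14, adjusted p = 0.0121). Its CPM was 3121, 3008 and 2509 in RF.SAAR and 1516, 1113 and 1300 in HF.SAAR. The Ctrl mice ranged from 2449 to 3812 CPM, so the HF.SAAR livers were the lowest of the 4 groups. Leaving out HF.SAAR replicate 2 gave -1.04 (adjusted p = 0.0938) and leaving out HF.SAAR replicate 3 gave -1.13 (adjusted p = 0.0565). Skeletal muscle also expresses Car3, and the summed CPM of 9 muscle genes was 303 to 719 in HF.SAAR and 341 to 932 in RF.SAAR; its part in the result was not tested.

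Interferon-responsive genes as a list were lower with high fat. Interferons switch on transcription factors that bind promoters of antiviral genes, among them the immunity-related GTPases such as Igtp and Irgm1, which act on membranes around intracellular pathogens. Of 37 genes tested, 34 were below 0 and 13 (35.1%) were lower in every HF.SAAR mouse than in every RF.SAAR mouse, against 4.62% of all genes, and none was higher in every one. The median log2 difference was -0.44, beside 0.0068 over all genes tested. Igtp was the single member past the test.

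Igtp was at 48.7, 43.0 and 45.4 CPM in RF.SAAR and at 24.7, 23.2 and 27.2 CPM in HF.SAAR. The Ctrl mice, at 17.2 to 26.0 CPM, were close to HF.SAAR, so the RF.SAAR livers were the group that stood apart. Igtp (chr11:58199556-58207591, plus strand) fell by 0.87 (SE 0.14, adjusted p = 0.0427). Over the fits without 1 mouse its log2 difference was between -0.93 and -0.82, and the call held in 3 of 12, with adjusted p up to 0.264 (without HF.SAAR replicate 2).

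Oasl1, a member of the oligoadenylate synthetase family, was at 13, 11.1 and 12.2 CPM in RF.SAAR and at 5.97, 4.05 and 7.47 CPM in HF.SAAR, a log2 difference of -1.05 (SE 0.19, adjusted p = 0.0895). Rtp4, an interferon-induced chaperone of receptors, was at 24.9 to 29.3 CPM in RF.SAAR and 16.2 to 20.6 CPM in HF.SAAR, with a log2 difference of -0.59 (SE 0.14, adjusted p = 0.321). Irgm1 was at 64.9 to 77.5 CPM in RF.SAAR and 45.3 to 58.7 CPM in HF.SAAR, with a log2 difference of -0.48 (SE 0.12, adjusted p = 0.424). Each of these genes separated the 2 groups without passing the test. The Ctrl mice were at 15.9 to 22.7 CPM for Rtp4 and 44.0 to 54.8 CPM for Irgm1, near the HF.SAAR level. Oasl1 was at 7.98, 8.46 and 9.21 CPM in RF.Ctrl, above every HF.SAAR mouse, and at 5.69 to 6.23 CPM in HF.Ctrl, a log2 difference of -0.52 (SE 0.19) under the control diet.

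The median of the interferon list per mouse, on log2 CPM centered on each gene's mean over the 12 mice, was 0.15, 0.51 and 0.62 in order of size in RF.SAAR and -0.26, -0.01 and 0.28 in HF.SAAR. Those ranges overlap, while the 6 Ctrl livers lay between -0.31 and 0.04. The median log2 difference of the list kept its sign under every alternative (-0.58 to -0.30), and it was -0.51 with 35 of 37 members below 0 without the 2 livers with pancreatic transcripts. In the Ctrl mice the median was -0.10, and no member passed the interaction test. Summed CPM of 21 Kupffer cell and macrophage genes, cells that also express this list, was 603 to 832 in HF.SAAR and 584 to 675 in RF.SAAR; its part in the result was not tested.

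**Figure D3:**
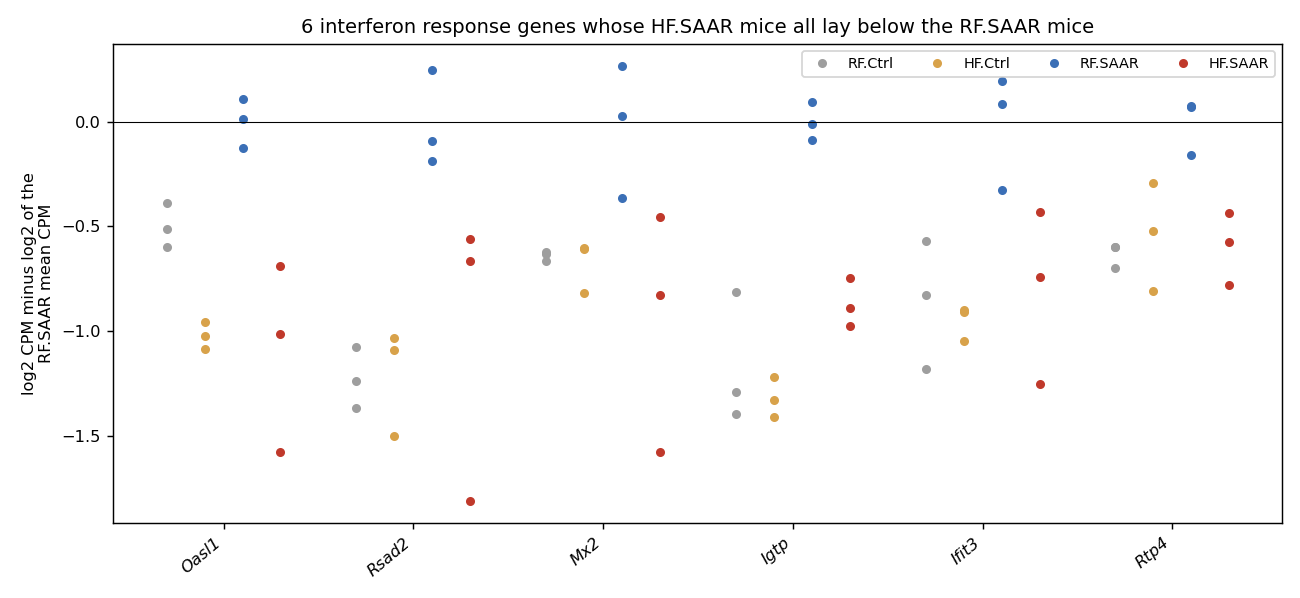
The 6 interferon response genes with the lowest log2 differences among those lower in every HF.SAAR mouse than in every RF.SAAR mouse, as log2 CPM minus log2 of the RF.SAAR mean of that gene, with 1 point per mouse in the 4 groups. For Igtp and Rtp4 the RF.SAAR points lie above those of all other groups, and HF.SAAR lies close to the Ctrl groups.

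Promoters show what these genes share by sequence. RefSeq promoters (GRCm38.p6, 250 bases before to 50 after the start) were given for 28 of the 37 genes, and 17 of the 28 (60.7%) hold the interferon-stimulated response element, searched as GAAANNGAAA on both strands, against 3.96% of the 11157 tested genes with a promoter and 3.44% of all 32851 promoters. The list was written from genes known to respond to interferon, so a high share follows from that choice and says nothing about dietary fat. The 17 genes with the letters had a median log2 difference of -0.44 and the 11 without them one of -0.37, and the difference between the 2 sets was not tested. Shown are the promoters of the genes of the list named above that have one, with matches in capitals: Igtp at chr11:58199306-58199605 (plus strand) holds 1, Irgm1 at chr11:48871371-48871670 (minus strand) holds 2 that overlap, and Oasl1 at chr5:114922990-114923289 (plus strand) has none of these letters in the window.
Igtp: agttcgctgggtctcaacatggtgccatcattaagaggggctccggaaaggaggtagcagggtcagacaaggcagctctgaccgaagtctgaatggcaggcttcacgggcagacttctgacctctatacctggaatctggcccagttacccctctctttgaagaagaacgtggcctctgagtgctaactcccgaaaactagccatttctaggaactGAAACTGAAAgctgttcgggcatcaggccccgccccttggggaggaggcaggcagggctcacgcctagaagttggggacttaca
Irgm1: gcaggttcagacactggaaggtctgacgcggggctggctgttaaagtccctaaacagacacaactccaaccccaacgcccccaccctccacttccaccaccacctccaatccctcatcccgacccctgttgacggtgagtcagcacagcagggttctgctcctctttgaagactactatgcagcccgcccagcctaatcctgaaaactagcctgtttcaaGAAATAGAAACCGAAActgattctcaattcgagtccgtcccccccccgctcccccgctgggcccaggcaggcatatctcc
Oasl1: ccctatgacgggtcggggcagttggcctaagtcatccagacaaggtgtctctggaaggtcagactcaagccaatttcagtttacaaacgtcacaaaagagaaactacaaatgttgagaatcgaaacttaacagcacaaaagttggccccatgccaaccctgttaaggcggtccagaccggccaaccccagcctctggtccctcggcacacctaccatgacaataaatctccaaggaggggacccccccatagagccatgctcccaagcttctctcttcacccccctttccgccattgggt

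Cyp39a1, an oxysterol 7α-hydroxylase of bile acid synthesis, rose by 0.66 on the log2 scale (SE 0.10, adjusted p = 0.0222) with high fat in restricted mice. It was at 94.3, 87.2 and 79.5 CPM in RF.SAAR and at 131, 143 and 140 CPM in HF.SAAR. The control diets gave the opposite order at a much lower level, 18.3, 17.9 and 15.7 CPM in RF.Ctrl and 12.3, 11.6 and 11.4 CPM in HF.Ctrl, a log2 difference of -0.56 (SE 0.10, adjusted p = 0.19). The interaction, the log2 difference in SAAR mice minus that in Ctrl mice, was 1.22 (SE 0.14, adjusted p = 0.00917). It was the single gene of 14625 (0.00684%) past that test, and DESeq2 gave 16 genes and limma voom 1. No gene passed it without HF.Ctrl replicate 1 or 2, RF.Ctrl replicate 2, RF.SAAR replicate 2 or RF.SAAR replicate 3, and 2 genes passed without RF.Ctrl replicate 1 or HF.SAAR replicate 2. Over the fits without 1 mouse the log2 difference in SAAR mice was between 0.60 and 0.72, past the test in 4 of 12 and with an adjusted p of 0.187 without HF.SAAR replicate 2.

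Of 19 genes of bile acid synthesis and transport tested, Cyp39a1 alone passed, 12 were above 0, 2 (10.5%) were higher in every HF.SAAR mouse against 5.46% of all genes, and the median was 0.06. Nr0b2, the repressor SHP, had a difference of the same size, 0.66 (SE 0.47), with groups that overlapped, and was chosen after its values were seen. Cyp7a1, the rate-limiting enzyme of the classic pathway, had 57.7, 30.4 and 64.1 CPM in RF.SAAR and 33.1, 23.8 and 91.7 CPM in HF.SAAR, a difference of -0.03 (SE 0.94), so its mice varied more than the groups. Rdh9, a short-chain dehydrogenase of retinol and steroids, rose by 0.82 (SE 0.11, adjusted p = 0.0141), from 82.3, 70.8 and 74.4 CPM to 115, 140 and 148 CPM. The Ctrl mice were at 80.3 to 103 CPM, below every HF.SAAR mouse. Among them every HF.Ctrl mouse (100 to 103 CPM) was above every RF.Ctrl mouse (80.3 to 91.5 CPM). Under the control diet the Rdh9 log2 difference was 0.27 (SE 0.11). The Rdh9 call was lost without HF.SAAR replicate 2 (adjusted p = 0.1), HF.SAAR replicate 3 (0.0706), RF.SAAR replicate 2 (0.0639) or RF.SAAR replicate 3 (0.0932).

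Slc22a7, the organic anion transporter OAT2 of the hepatocyte membrane, was at 29.8, 25.8 and 26.0 CPM in RF.SAAR and at 54.5, 43.4 and 43.9 CPM in HF.SAAR. It rose by 0.80 (SE 0.13, adjusted p = 0.0496) and so lay at the edge of the threshold. All 6 Ctrl mice had more, 60.3 to 87.3 CPM, so the HF.SAAR livers lay between RF.SAAR and the controls. It passed in 1 of the 12 fits without 1 mouse, with an adjusted p up to 0.285 (without RF.SAAR replicate 3).

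Glutathione S-transferases couple glutathione, made from cysteine, to electrophiles, and many are induced through the transcription factor Nrf2. Gsta2 was at 34.0, 58.0 and 43.2 CPM in RF.SAAR and at 87.0, 113 and 92.9 CPM in HF.SAAR. The Ctrl mice held 16.3 to 22.0 CPM, below all restricted mice. Gsta2 rose by 1.11 (SE 0.17, adjusted p = 0.0427), and over the fits without 1 mouse it passed in 1 of 12, with log2 differences between 0.95 and 1.34 and an adjusted p up to 0.285.

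Of 33 glutathione and Nrf2 genes tested, Gsta2 passed, 21 were above 0, 6 (18.2%) were higher in every HF.SAAR mouse and 2 (6.06%) lower in every one, against 5.46% and 4.62% of all genes, with a median of 0.16. Gstm2 was at 66.0, 59.6 and 61.8 CPM in RF.SAAR and at 126, 132 and 92.2 CPM in HF.SAAR, a log2 difference of 0.90 (SE 0.19, adjusted p = 0.252). Gstm3 had a log2 difference of 0.64 (SE 0.20, adjusted p = 0.657) and Gstm1 one of 0.34 (SE 0.10, adjusted p = 0.531). Under the control diet the same genes had log2 differences of -0.42 (Gstm2), -1.07 (Gstm3) and -0.37 (Gstm1), and the interaction did not pass for any of them (adjusted p = 0.535, 0.259 and 0.35). The 4 genes have near-identical relatives in their clusters, so their separate levels are uncertain.

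Most genes of fatty acid synthesis had lower values with high fat, and none passed the test. Scd1 was at 159, 115 and 402 CPM in RF.SAAR and at 30.9, 41.3 and 17.6 CPM in HF.SAAR. The groups did not overlap, but RF.SAAR replicate 3 held more than 2 times the Scd1 of the other RF.SAAR mice. RF.SAAR replicate 3 is also the liver with the highest adrenal signal. Its summed CPM of 5 adipocyte markers was 19.4, against 3.52 and 4.35 in the other RF.SAAR mice and 3.59 to 11.4 in HF.SAAR. The part of other tissue in the Scd1 difference was not tested beyond the fits that leave out RF.SAAR replicate 3. The Scd1 values of those fits are not reported here. The log2 difference was -2.91 (SE 0.48, adjusted p = 0.14), the largest among the lower genes named here, and by DESeq2 it passed (adjusted p = 3.56e-06). Under the control diet Scd1 went from 1249, 995 and 1081 CPM to 69.3, 91.0 and 69.5 CPM, a log2 difference of -3.85 (SE 0.49, adjusted p = 0.148), and the interaction of 0.94 (SE 0.63, adjusted p = 0.999) did not pass.

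Of 19 lipogenic genes, none passed in edgeR, 14 were below 0 and 4 (21.1%) were lower in every HF.SAAR mouse, against 4.62% of all genes, with a median of -0.20 beside -0.50 in Ctrl mice. Acss2, which makes acetyl-CoA from acetate, and Me1, the malic enzyme that supplies NADPH, were among the 4, with differences of -0.34 (SE 0.12) and -0.48 (SE 0.18). Acly, which makes cytosolic acetyl-CoA, was at 111, 112 and 140 CPM in RF.SAAR and 86.1, 105 and 110 CPM in HF.SAAR. Fasn, Acaca, Elovl6 and Srebf1 overlapped between the groups, with differences of -0.42 (SE 0.23), -0.34 (SE 0.21), -0.41 (SE 0.19) and -0.11 (SE 0.23). Dgat2, which completes triacylglycerol, had a difference of 0.26 (SE 0.10).

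Genes of fatty acid oxidation were split. Of 31 tested none passed, 14 were above 0 and 17 below, with a median of -0.04, whereas in Ctrl mice 29 of 31 were above 0 with a median of 0.18. Crot, the peroxisomal octanoyltransferase, was at 912, 942 and 992 CPM in RF.SAAR and 791, 675 and 795 CPM in HF.SAAR, a difference of -0.33 (SE 0.11) beside 0.17 (SE 0.10) under the control diet. Acsl1, which activates long-chain fatty acids, differed by -0.25 (SE 0.11) beside 0.27 (SE 0.11). Ehhadh, of peroxisomal oxidation, differed by -0.48 (SE 0.17) beside 0.38 (SE 0.17), and no interaction of the 3 passed (adjusted p = 0.999 for each). Cpt1a, the gate of mitochondrial import, was higher in every HF.SAAR mouse, with a difference of 0.21 (SE 0.12). The wider list of 26 PPARα-responsive genes had a median of -0.06, beside 0.21 in Ctrl mice.

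**Figure D4:**
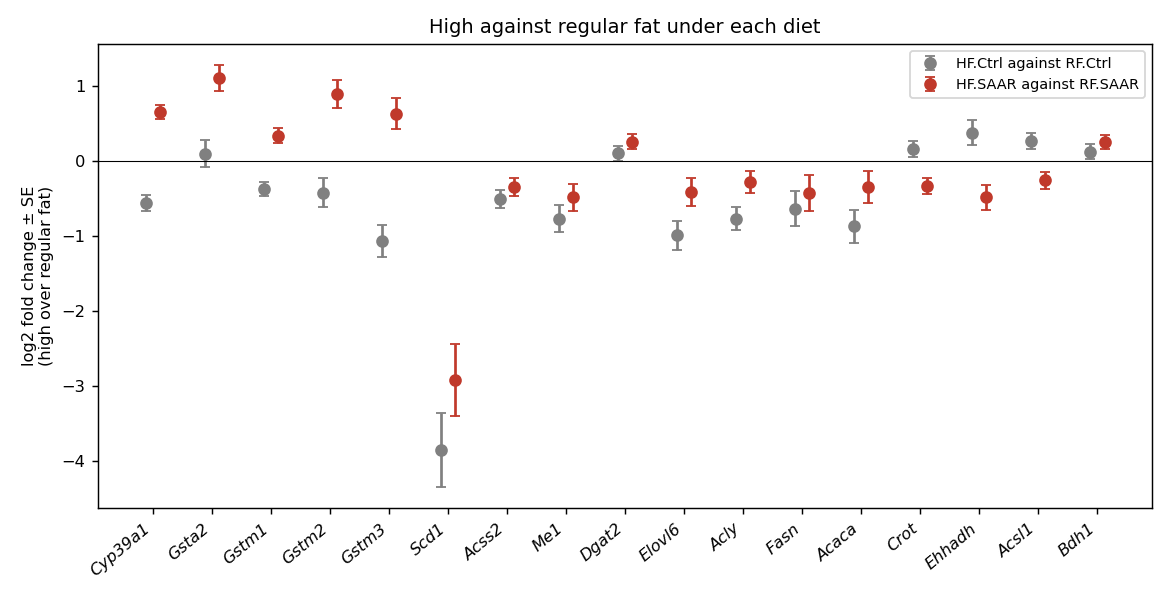
Log2 fold change of high over regular fat ± SE for 17 named genes, in SAAR mice and in Ctrl mice (3 mice per group). Cyp39a1 is above 0 in SAAR mice (0.66) and below 0 in Ctrl mice (-0.56), and Scd1 is far below 0 in both (-2.91 and -3.85).

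Genes known to be higher in male than female liver, which follow the pulsed male pattern of growth hormone, were low in HF.SAAR. Of 23 tested none passed, 21 were below 0 and 7 (30.4%) were lower in every HF.SAAR mouse, against 4.62% of all genes, with a median of -0.29 beside 0.08 in Ctrl mice. Serpina1e, a protease inhibitor of the alpha-1 antitrypsin family, was at 8054, 5154 and 6941 CPM in RF.SAAR and at 3325, 2392 and 2130 CPM in HF.SAAR. Its difference was -1.36 (SE 0.26, adjusted p = 0.213). Serpina1e has close paralogs, so its separate level is uncertain. C6, of the complement attack complex, was at 108 to 156 CPM and 84.2 to 86.3 CPM, a difference of -0.60 (SE 0.14). Elovl3, a fatty acid elongase, differed by -1.13 (SE 0.30) and Selenbp2, a selenium-binding protein, by -0.88 (SE 0.26). In the per-mouse median of this list all HF.SAAR livers (-0.79 to -0.59) were below all RF.SAAR livers (-0.49 to -0.16), and all Ctrl livers were above both (0.27 to 0.88). Among 10 female-biased genes Rdh9 passed and 6 were above 0. The median of the male-biased list stayed between -0.42 and -0.16 under the alternatives.

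Acute-phase genes, made by hepatocytes under inflammatory signals, were mostly higher with high fat. Of 26 tested none passed, 22 were above 0 and 8 (30.8%) were higher in every HF.SAAR mouse, beside 5.46% of all genes, with a median of 0.24. Lcn2, an iron-siderophore carrier, was at 2.41, 1.38 and 2.63 CPM in RF.SAAR and at 9.89, 10.2 and 4.59 CPM in HF.SAAR, a difference of 1.94 (SE 0.36, adjusted p = 0.128). Crp, a pentraxin, was at 439 to 514 CPM and 588 to 726 CPM, a difference of 0.44 (SE 0.11, adjusted p = 0.434). The list median was 0.09 without the 2 livers with pancreatic transcripts.

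The list also holds the metallothioneins, small cysteine-rich proteins that bind zinc and copper. Mt2 was at 5.40, 7.18 and 6.85 CPM in RF.SAAR and at 23.3, 27.6 and 28.4 CPM in HF.SAAR, a log2 difference of 2.03 (SE 0.49, adjusted p = 0.434). Its neighbor Mt1, chosen after its values were seen, was at 34.0, 38.4 and 29.4 CPM and at 88.8, 112 and 110 CPM, a difference of 1.61 (SE 0.39, adjusted p = 0.46). Both separated the groups with a wide gap and were tight within them, and Mt2 passed in an edgeR fit of the SAAR mice alone (adjusted p = 0.00229) and by DESeq2 (adjusted p = 0.0494). The Ctrl mice held 8.51 to 46.1 CPM of Mt1. Their promoters are shown because both genes stand side by side on chromosome 8 and differed alike. Capitals mark the letters TGCNCNC on either strand, which 51% of all promoters hold. They are looser than the metal response element core, which takes only A or G after TGC. Mt2 at chr8:94172368-94172667 (plus strand) has 6 matches to the looser letters, and some of these have T after TGC. Mt1 at chr8:94178839-94179138 (plus strand) has 3. Matches to the core itself were not counted.
Mt2: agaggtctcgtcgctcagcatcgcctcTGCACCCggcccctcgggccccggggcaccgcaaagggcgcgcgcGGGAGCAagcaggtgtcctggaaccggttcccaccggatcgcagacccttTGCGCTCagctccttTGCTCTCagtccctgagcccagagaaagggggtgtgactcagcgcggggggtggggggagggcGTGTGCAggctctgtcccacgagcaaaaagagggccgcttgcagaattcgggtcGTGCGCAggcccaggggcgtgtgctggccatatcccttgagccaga
Mt1: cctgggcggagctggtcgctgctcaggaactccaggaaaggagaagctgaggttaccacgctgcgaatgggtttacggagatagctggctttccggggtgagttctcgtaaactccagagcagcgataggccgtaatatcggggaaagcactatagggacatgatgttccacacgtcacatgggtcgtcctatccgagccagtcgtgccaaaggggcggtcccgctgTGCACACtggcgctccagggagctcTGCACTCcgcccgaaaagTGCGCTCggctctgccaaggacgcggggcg

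Most genes of the integrated stress response had higher values with high fat. Per the study, HF.SAAR mice also took in less protein and sulfur amino acids by weight, so fat and intake cannot be told apart. The 19 genes are the study's list, which it took from earlier published lists. None passed in this contrast, 17 were above 0 and 5 (26.3%) were higher in every HF.SAAR mouse, against 5.46% of all genes, with a median of 0.67 beside -0.10 in Ctrl mice. Trib3, a pseudokinase induced by ATF4, was at 11.2, 7.44 and 10.6 CPM in RF.SAAR and at 17.6, 16.5 and 27.2 CPM in HF.SAAR, a difference of 1.07 (SE 0.32, adjusted p = 0.646). Nupr1, a stress-induced chromatin protein, was at 3.14 to 3.63 CPM and at 5.54, 7.47 and 34.9 CPM, with a difference of 2.27 (SE 0.93). HF.SAAR replicate 3 was far above the other mice, and it also held the most pancreatic acinar counts (2.23%). HF.Ctrl replicate 2, with 0.685% acinar counts, had 14.6 CPM of Nupr1, and the other Ctrl livers had 1.22 to 4.04 CPM. The part of pancreatic tissue in the Nupr1 difference was not tested beyond the fits without HF.SAAR replicates 2 and 3 and with the acinar covariate. The Nupr1 values of those fits are not reported here. Mthfd2 and Asns, which supply one-carbon units and asparagine, overlapped between groups, with differences of 0.74 (SE 0.28) and 0.76 (SE 0.53). Atf4 itself differed by 0.10 (SE 0.15) and Fgf21, the hormone of protein restriction, by 0.59 (SE 0.60). The per-mouse median of the list was 0.02 to 0.36 in RF.SAAR and 0.32 to 1.08 in HF.SAAR, ranges that overlap. HF.SAAR replicate 3 had the highest value. With the acinar signal as a covariate the list median was 0.27. Without the 2 livers with pancreatic transcripts, the list median was 0.30 with 12 of 19 above 0.

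A further 25 other ATF4 targets had a median of 0.03 and 15 above 0. Immediate early genes, which respond within minutes to handling as well as to signals, had 20 of 24 above 0 and a median of 0.54, none past the test, and 0.08 without the 2 pancreas-bearing livers. Some of them, such as Atf3 and Fos, are also on the stress response list, so the results of both lists are not independent. Csad, the decarboxylase that makes hypotaurine on the way from cysteine to taurine, was at 342, 357 and 275 CPM in RF.SAAR and at 105, 134 and 92.3 CPM in HF.SAAR. It separated the groups without overlap, with a difference of -1.56 (SE 0.31, adjusted p = 0.252). The 21 genes of methionine and cysteine metabolism had a median of 0.06 and none passed.

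Transcripts of the translation and respiration machinery differed by small, like amounts. Of 81 ribosomal protein genes 80 were above 0, with a median of 0.23, and 12 (14.8%) were higher in every HF.SAAR mouse, against 5.46% of all genes, while in Ctrl mice 77 were below 0 with a median of -0.10. Rpl10a, of the large subunit, was at 144, 167 and 152 CPM in RF.SAAR and 206, 184 and 175 CPM in HF.SAAR, a difference of 0.29 (SE 0.12, adjusted p = 0.852). Of 79 nuclear genes of the respiratory chain 78 were above 0 with a median of 0.21 and 2 (2.53%) were higher in every HF.SAAR mouse, and all 13 mitochondrially encoded mRNAs were above 0 with a median of 0.18. No member of these lists passed the test. The per-mouse median of the ribosomal list was -0.13 to 0.20 in RF.SAAR and 0.11 to 0.48 in HF.SAAR, which overlap, and so did that of the respiratory list, at -0.31 to 0.14 and -0.08 to 0.36. With the acinar signal as a covariate the medians were 0.03 for ribosomal and 0.01 for respiratory genes, and without the 2 pancreas-bearing livers 0.09 and 0.07.

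**Figure D5:**
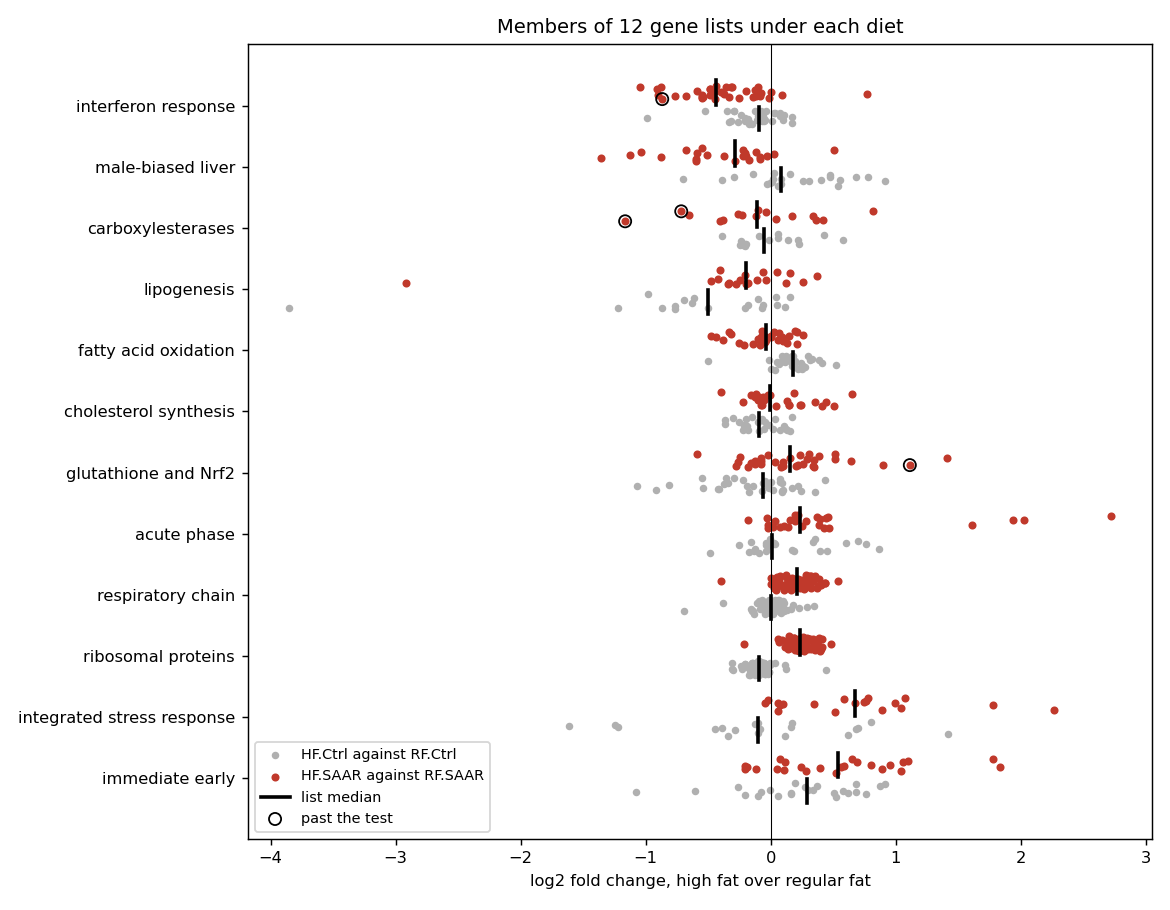
Log2 fold change of high over regular fat for each tested member of 12 gene lists, in SAAR mice (upper row of each list) and Ctrl mice (lower row); bars are list medians and circles mark genes past the test. Interferon response genes lie mostly below 0 in SAAR mice (median -0.44), and ribosomal protein genes lie nearly all above 0 (median 0.23).

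Among cytochromes P450 of families 1 to 3, which oxidize drugs and steroids, none of 41 passed, and 9 (22%) were higher and 5 (12.2%) lower in every HF.SAAR mouse, against 5.46% and 4.62% of all genes. Cyp2a5, the coumarin hydroxylase, was at 428, 257 and 438 CPM in RF.SAAR and at 762, 1101 and 782 CPM in HF.SAAR, a difference of 1.24 (SE 0.23, adjusted p = 0.151). Cyp3a11, the main hepatic drug oxidase of the mouse, was at 311, 668 and 734 CPM and at 231, 280 and 271 CPM, a difference of -1.13 (SE 0.26, adjusted p = 0.424). Cyp2a22 had a difference of 1.90 (SE 0.36, adjusted p = 0.128) at no more than 5.71 CPM. Cyp2a5, Cyp2a22 and Cyp3a11 have close paralogs, so their separate levels are uncertain.

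Lipoprotein and sterol export genes had 21 of 26 above 0, a median of 0.20 and none past the test. Amino acid catabolism and the urea cycle had 27 of 39 above 0 with a median of 0.10. Cholesterol synthesis was evenly divided, with 12 of 25 above 0 and a median of -0.01, and Sqle, the squalene epoxidase, overlapped between groups. Lipid droplet genes had a median of -0.18, with Plin2 at -0.34 (SE 0.24) and Cidec at -0.72 (SE 0.35), and Cd36, the fatty acid translocase, at 0.44 (SE 0.17). Insulin and growth factor genes had a median of 0.05, Igf1 at 0.05 (SE 0.11) and Igfbp1 at 1.44 (SE 0.84), the latter from 57.7 to 575 CPM within HF.SAAR.

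Outside the lists, the genes nearest the threshold among those with separate groups were Spp2, a secreted liver phosphoprotein, and Krt23, a keratin. Spp2 was at 68.3, 86.1 and 67.0 CPM in RF.SAAR and at 118, 139 and 117 CPM in HF.SAAR, a difference of 0.75 (SE 0.13, adjusted p = 0.0638), and it passed in 6 of 24 alternatives. Krt23 was at 2.14, 4.15 and 3.86 CPM and at 6.72, 10.3 and 15.7 CPM, a difference of 1.69 (SE 0.29, adjusted p = 0.0895), beside 1.13 (SE 0.29) under the control diet. On the lower side were Spon2, an extracellular matrix protein, at -1.01 (SE 0.20, adjusted p = 0.14), the laminin chain Lama3 at -1.11 (SE 0.20, adjusted p = 0.106) and the transcription factor Pitx3 at -2.37 (SE 0.49, adjusted p = 0.213). Pitx3 was low, at 1.82 to 5.10 CPM in RF.SAAR and 0.415 to 0.860 CPM in HF.SAAR. Its locus overlaps the end of Elovl3 on the other strand, and whether reads of Elovl3 were counted as Pitx3 was not tested.

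The same comparison of fat under the control diet, in 6 other mice, gave no gene past the test in edgeR, with 521 genes at an unadjusted p under 0.05, 34 genes by DESeq2 and 3 by limma voom. In restricted mice 776 genes had an unadjusted p under 0.05 (454 higher, 322 lower). That one contrast passed for 8 genes and the other for none does not show that they differ, and the test of the difference itself passed for Cyp39a1 alone.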

How the data were processed

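Polyadenylated RNA from 12 mouse livers was sequenced, 3 per diet group. Per the labels, reads were trimmed with cutadapt, and the authors used kallisto to estimate abundances of Ensembl transcripts of GRCm38. The deposited estimated counts carry no normalization between mice, the deposited TPM are scaled by length to a common sum, and the deposited effective lengths are in bases. Estimated counts were summed per gene by the GENCODE annotation of GRCm38 (116816 of 118489 transcripts matched; unmatched ones held 0.70% to 1.80% of counts) and rounded.

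After 56 pancreatic acinar genes were removed, edgeR 4.0.16 in R 4.3.3 was run with filterByExpr, TMM factors and a robust quasi-likelihood fit of 1 coefficient per group over all 12 mice; the quasi-likelihood F-test was adjusted by Benjamini-Hochberg over 14625 genes. The SE is the log2 difference divided by the square root of F. P-values measure the spread between single mice. Whole-sample intervals for counting error were not used, since the spread between mice is larger; the common biological coefficient of variation was 0.192. The deposited labels give diet and fat under each other's tag, and samples were grouped by both values together. Replicate numbers follow the order of the samples and only name mice.

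Named are all genes past the test, the 10 higher and 10 lower genes of smallest p whose groups do not overlap, up to 4 genes per list by smallest p, and 35 genes of lipid, stress and glucose metabolism. The members and lists were chosen with earlier results of these data known. The lists were written from general knowledge or by symbol pattern, apart from the study's list of integrated stress response genes. A symbol with 2 gene identifiers was counted once. Some genes the rule names are not reported here. The test was checked on simulated counts. Alternatives were RLE factors, library size alone, a minimum of 10 counts in all mice, no filter on low counts, DESeq2 1.42.0, limma 3.58.1 voom with quality weights, the compared groups alone, acinar genes kept, the acinar signal as a covariate, leaving out HF.SAAR replicates 2 and 3, effective length offsets and leaving out each mouse. Leaving out RF.SAAR replicate 3 as well was added after seeing the data. The promoter sequences are from RefSeq.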

Additional observations from a re-analysis of the deposited data

Results flagged for a closer look

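Cyp39a1 was flagged because its response to fat differed between the diets: the log2 difference of high over regular fat in SAAR mice minus that in Ctrl mice was 1.22 (SE 0.14, adjusted p = 0.00917, edgeR). All 3 HF.SAAR mice were above all 3 RF.SAAR mice, and all 3 HF.Ctrl mice were below all 3 RF.Ctrl mice.

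The pancreatic acinar genes that were set aside before the fit were flagged as a signal outside the comparison. They held 0.450% of the counts in HF.SAAR replicate 2 and 2.23% in HF.SAAR replicate 3, against at most 0.0112% in the RF.SAAR livers. Their part in the differences between HF.SAAR and RF.SAAR was not tested beyond the fits without these livers and with the acinar signal as a covariate.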

How the results depend on the processing

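No paired analysis was run, since each mouse was assigned to a single diet and the labels match no mice between groups. The count of 8 genes in HF.SAAR against RF.SAAR became 5 with library size alone, 14 with no low-count filter, 49 with DESeq2 (22 higher, 27 lower), 5 with the compared groups alone, 2 with the acinar covariate, 0 without the 2 livers with pancreatic transcripts, 5 with effective length offsets and 2 without the 3 livers with pancreatic or adrenal transcripts. It ranged from 1 to 8 over the fits that leave out 1 mouse. The count of 0 in HF.Ctrl against RF.Ctrl became 1, 3, 34, 3 (limma voom), 3, 1, 4 and 5 under library size alone, no filter, DESeq2, voom, the compared groups alone, the acinar covariate, without the 2 livers and without the 3 livers, and ranged from 0 to 2 without 1 mouse. The interaction count of 1 became 16 with DESeq2, and 0 without the 2 livers, without the 3 livers and with effective length offsets, and ranged from 0 to 2 without 1 mouse. The DESeq2 calls included all 8 genes. The cause of these changes was not tested. Of 4252 values of 178 named genes under the alternatives, none changed direction with a call, 88 lost a call and 42 gained one. Of 911 list medians, 45 moved by more than the spread between mice. The medians of 23 of 38 lists changed sign under at least 1 alternative, and those of the interferon, male-biased, stress response, ribosomal, respiratory, acute-phase and lipogenic lists did not. With 3 mice per group and a coefficient of variation of 0.192, differences of small size can go uncalled.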
